A study of Macaca mulatta with 449 samples.

Results

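The ephrin, netrin and slit guidance genes are a set of 38 genes chosen by their symbols. Of these, 34 had a row in the count table of 30807 genes, and EPHA1, EFNA2, EFNA4 and NTN1 were not analysed here. The 34 comprised 8 of 9 EphA receptors, all 5 EphB receptors, 3 of 5 ephrin-A ligands, all 3 ephrin-B ligands, 2 of 3 netrins, all 6 netrin receptors, all 3 Slit ligands and all 4 Robo receptors. RNA had been sequenced from 51 dissected brain sub-regions of 8 healthy rhesus macaques from a single source, for which the labels name no treatment, which gave 408 libraries. The animals are named as in the labels. Rhesus 2 and Rhesus 3 were mid-aged males, Rhesus 6 and Rhesus 11 mid-aged females, Rhesus 7 and Rhesus 8 young males, and Rhesus 4 and Rhesus 10 young females, where young is 3.2 to 5 years and mid-aged 9.8 to 10 years.

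The 51 sub-regions fell into 16 region groups, and the animal was the replicate (n = 8 throughout). The cerebral cortex (CTX) contributed 31 sub-regions, the hippocampus (HIP) and striatum (STR) 3 each, and the cerebellum (CB) 2. The other groups held a single sub-region each. They were the entorhinal and perirhinal cortex (PA), olfactory bulb (OB), amygdala (AMY), globus pallidus (GP), thalamus (THA), hypothalamus (HTHA), pituitary (PIT), substantia nigra (SN), ventral tegmental area (VTA), pons (PON), medulla oblongata (MO) and corpus callosum (CC). Each sample was a small block of mixed tissue, so fewer cells of a type and less RNA per cell cannot be told apart in any result here.

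Ephrins are ligands held on the cell surface and Eph proteins are their receptor tyrosine kinases. A-type ephrins carry a lipid anchor and mainly bind EphA receptors, B-type ephrins span the membrane and mainly bind EphB receptors, and contact most often repels a growing axon. Netrins are secreted proteins related to laminin that attract axons through DCC and repel them through receptors of the UNC5 family. Slits are secreted proteins that bind Robo receptors and keep axons from crossing or re-crossing the midline. The same families are known for graded maps between retina, thalamus and cortex during development, and several members keep roles at synapses and in vessels of the adult brain.

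Levels are CPM, counts scaled to a common library size, with library sizes adjusted by the TMM method of edgeR, with the counts of a group's sub-regions summed within each animal. They were compared between regions for 1 gene at a time and never between genes, because gene lengths were not used. Library totals ran from 7784678 to 31083490 counts with a median of 10698602. Every member passed the filter on low counts with 16829 genes over the 16 groups. Of the marker lists, summed oligodendrocyte markers were highest in CC (median 107695 CPM) and lowest in PIT (median 37.7), neuron markers were low in CC (median 529) and PIT (median 565), and anterior pituitary markers ran from 39233 to 359358 CPM in PIT. Some libraries stood apart from their group. The MO library of Rhesus 6 held 564 CPM of neuron markers beside 7584 to 13950 in the other 7 animals, and its HTHA library held 479 CPM of SLC17A7, a vesicular glutamate transporter, beside 0.965 to 5.17. Oligodendrocyte markers reached 109029 CPM in the GP library of Rhesus 2 beside 51527 to 76640, and 36736 in the HTHA library of Rhesus 3 beside 3578 to 21633. The PIT library of Rhesus 8 stood apart over the members. Its median absolute log2 deviation from the group median was 0.580, beside 0.967 in the MO library of Rhesus 6 and 0.575 in the GP library of Rhesus 2.

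The comparison of the 16 groups asked where in the brain each guidance gene was most and least expressed. EPHA4, EPHA5, EPHA6, EPHB6, NTNG2, UNC5A, SLIT1 and SLIT2 shared a pattern. Each was higher in the cerebral cortex, the entorhinal and perirhinal cortex, the hippocampus and the amygdala than in the mean of the other groups. DCC, NEO1, UNC5B, UNC5C and EFNA1 were higher in the corpus callosum. The group with the lowest mean level was CC for 9 members, CB for 8 and PIT for 7. The fitted range from the lowest to the highest group had a median of 4.62 on the log2 scale over the 34 members, and 2.04 over all genes tested. It exceeded 4-fold for 94.1% of members and 50.97% of all genes. SLIT1 had the widest range (9.54), followed by EPHA5 (8.38), EPHA8 (7.96), EPHB6 (7.45) and EPHA6 (6.69), and EPHB2 (1.66) and ROBO4 (1.84) had the narrowest. All 34 members differed over the groups in edgeR's quasi-likelihood F test at an adjusted p (Benjamini-Hochberg over all genes, FDR) below 0.05, where 99.7% of all genes did.

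Each group was then set against the mean log level of the other 15, and a member was called at FDR < 0.05 and an absolute log2 fold change (log2FC) above 1. Over the 544 pairs of a member and a group, 105 were called higher and 85 lower. Over all genes, 9.27% of such pairs were called higher and 7.94% lower. PA had 15 members higher and none lower (background 9.89% higher, 5.03% lower). CTX had 13 higher and 1 lower (9.5% and 8.23%), AMY 12 and 1 (9.34% and 6.27%), HIP 11 and 2 (8.82% and 6.06%), OB 11 and 7 (10.2% and 5.59%) and STR 9 and 2 (8.64% and 5.33%). In CC 5 members were higher and 17 lower (13.6% and 18%), in PIT 5 and 12 (17.8% and 20.4%), in CB 3 and 11 (11.5% and 17.5%), in PON 2 and 9 (7.18% and 8.25%), in GP 4 and 8 (9.07% and 9.3%) and in SN 0 and 9 (5.78% and 4.83%). THA had 6 higher and 4 lower (6.45% and 5.54%) and HTHA 6 and 0 (6.61% and 0.588%). The counts were smallest in VTA with 2 and 1 (5.79% and 3.43%) and MO with 1 and 1 (8.01% and 2.75%). Of the 190 calls, 171 held under every alternative. The 19 others kept their direction, and were EPHA4, ROBO2 and SLIT3 in AMY, DCC and EPHA10 in GP, EFNA5, EPHB6 and UNC5D in HTHA, EFNB3 in MO, EPHA8, SLIT3 and UNC5B in OB, EPHA4 in PA, NTNG2 in PIT, EPHA6 in PON, EPHA6 and NTNG2 in SN, ROBO1 in THA and EFNB2 in VTA.

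**Figure D1:**
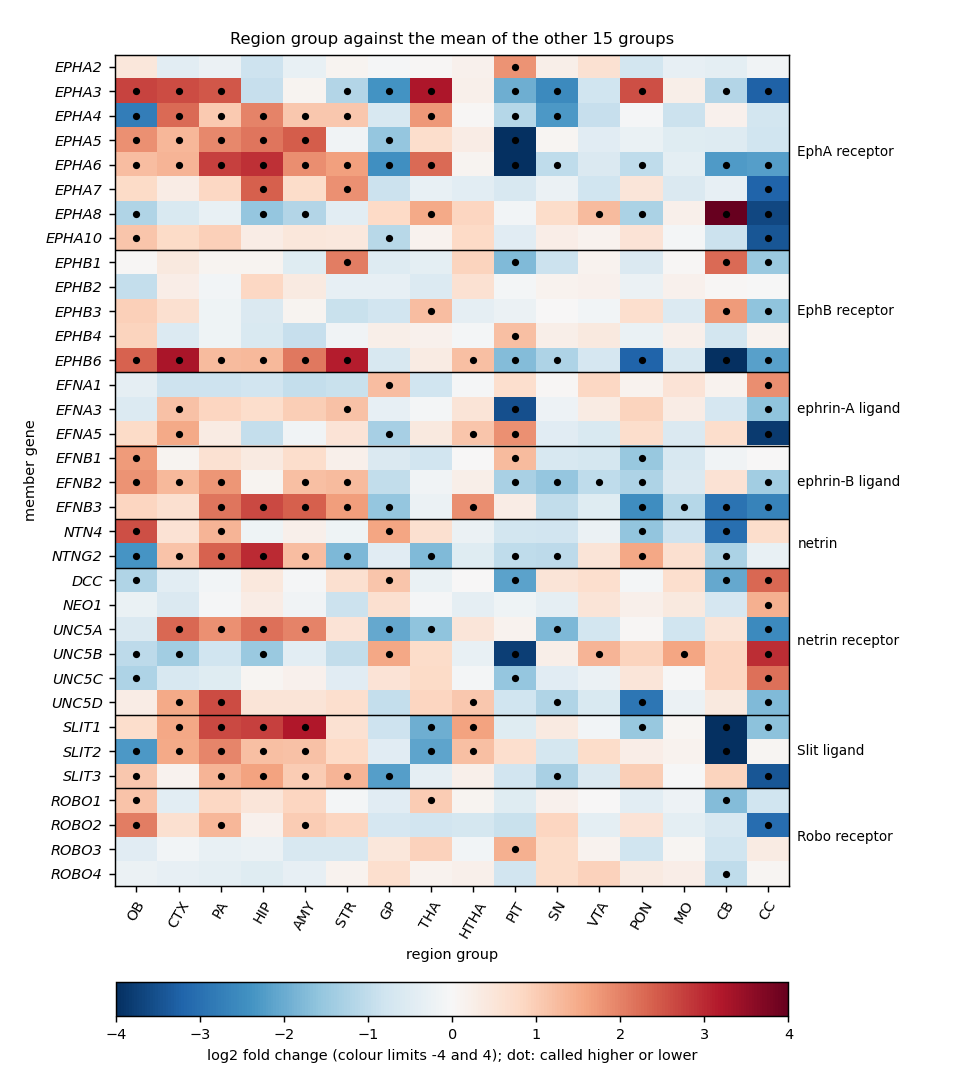
Heat map of the log2 fold change of 34 guidance genes (rows, by class) in each of 16 region groups (columns) against the mean of the other 15, with dots at the 105 higher and 85 lower calls. Red cells gather in OB, CTX, PA, HIP and AMY, and blue cells in PIT, CB and CC.

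A stricter rule asked for members that a single group held above every other group by over 2-fold at FDR < 0.05. It called 6 of the 34 members, where 11.5% of all genes were called. These were EPHA8 in the cerebellum, EPHA2 in the pituitary, DCC, UNC5B and UNC5C in the corpus callosum, and UNC5D in the entorhinal and perirhinal cortex, groups for which 1.73% (CB), 4.47% (PIT), 1.05% (CC) and 0.0772% (PA) of all genes were called. With a fold above 4 in place of 2, EPHA8 alone was called.

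EPHA8, an EphA receptor, was read at few counts outside the cerebellum. Its CB level ran from 17.3 to 44.3 CPM with a median of 26.7, and the next group, THA, ran from 1.59 to 6.05 CPM with a median of 3.45. The CB values of the 8 animals lay above all values of the other 15 groups. Against the mean of the other groups the difference was log2FC 4.84 ± 0.13 (SE), adjusted p = 1.80e-60. THA and VTA were also called higher for EPHA8 (1.52 ± 0.20 and 1.28 ± 0.21), and OB, AMY, HIP, PON and CC lower. CC held the least, from 0 to 0.489 CPM with a median of 0.0478.

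EPHA2, a receptor of epithelia and vessels that binds ephrin-A1, was called for the pituitary. It ran from 3.65 to 16.8 CPM with a median of 6.19 there and from 2.11 to 5.16 CPM with a median of 3.48 in VTA, the next group. PIT was the highest group in 7 of 8 animals and the values of the groups overlapped, with Rhesus 8 far above the other animals in PIT. The difference was log2FC 1.80 ± 0.13 (SE), adjusted p = 1.66e-24, and the call over each other group was lost without Rhesus 8.

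EPHA5 and EPHA7 are receptors of ephrin-A ligands on neurons. EPHA5 was highest in AMY, from 112 to 295 CPM with a median of 273, followed by HIP and PA, and ran from 0.133 to 2.08 CPM with a median of 0.337 in PIT. All PIT values lay below every value of the other 15 groups, whereas AMY overlapped HIP, with Rhesus 8 lowest in AMY. The difference for PIT was the largest of any EphA receptor (log2FC -6.52 ± 0.32 (SE), adjusted p = 1.59e-37), and AMY, HIP, PA, OB and CTX were called higher with log2FC from 1.33 to 2.41. EPHA7 in HIP ran from 159.6 to 189 CPM with a median of 175, above all values of the other groups, and STR followed, from 97.5 to 152 CPM with a median of 123. Its differences were 2.38 ± 0.11 for HIP and 1.83 ± 0.11 for STR. In CC it ran from 1.49 to 9.87 CPM with a median of 4.67 (log2FC -3.21 ± 0.19 (SE), adjusted p = 7.57e-31).

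EPHA3, a high-affinity receptor of ephrin-A5, was called higher in THA (3.24 ± 0.15), OB, CTX, PON and PA and lower in 6 groups. THA ran from 19.2 to 35.1 CPM with a median of 25.5 and was the highest group in 6 of 8 animals, and CC ran from 0.0946 to 0.765 CPM with a median of 0.394, overlapping SN. EPHA4, which binds both ephrin classes, was called higher in CTX (2.26 ± 0.16), HIP, THA, AMY, STR and PA and lower in OB (-2.76 ± 0.27), SN and PIT. CTX held it from 122 to 249.6 CPM with a median of 172, and OB from 3.29 to 10.9 CPM with a median of 6.43, so these groups did not overlap. EPHA6 was called in 13 of 16 groups, higher in 7 with HIP at the top (2.92 ± 0.13) and lower in 6 with PIT at the bottom (-4.22 ± 0.33). EPHA10, an Eph protein without kinase activity, was called higher in OB (1.11 ± 0.13) and lower in GP and CC (-3.41 ± 0.22).

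**Figure D2:**
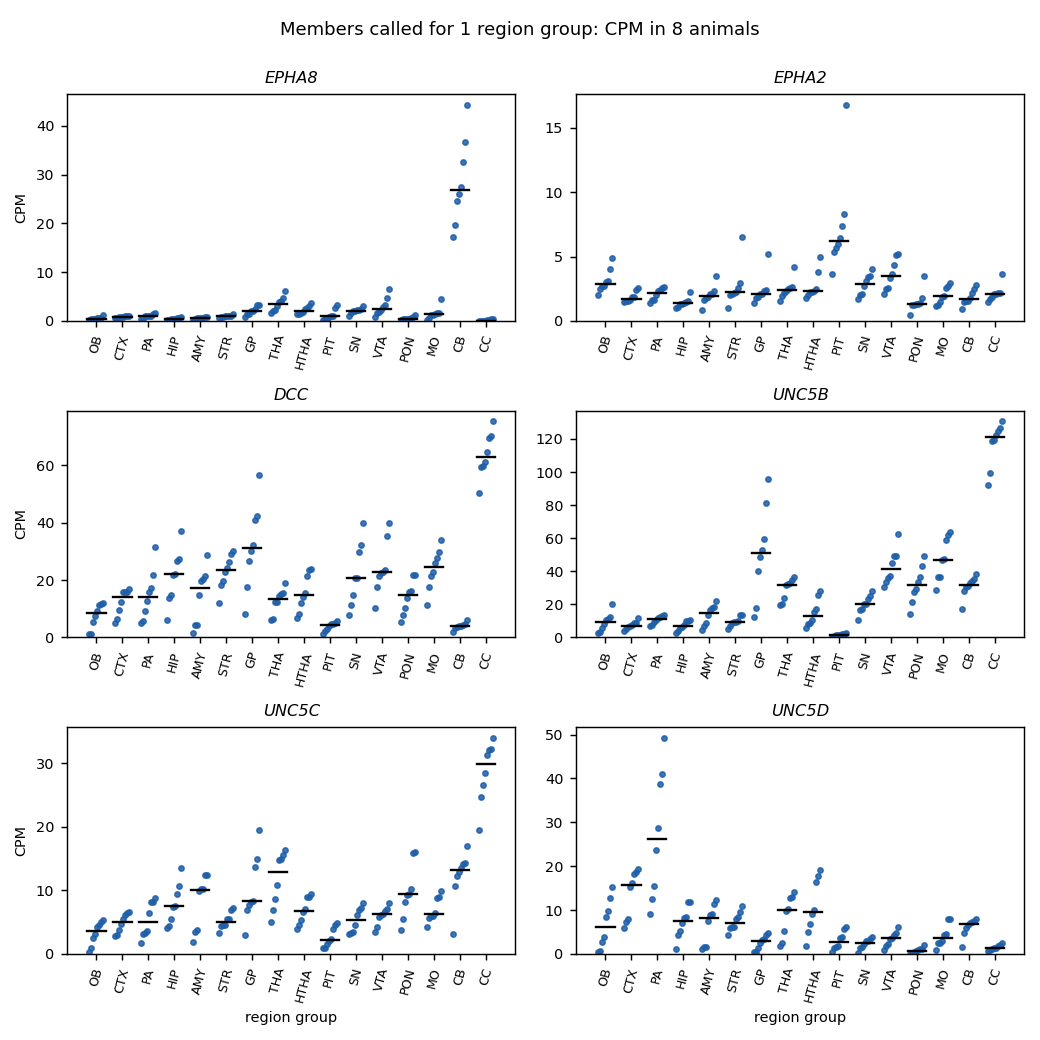
CPM of the 6 members called for a single region group, in 16 region groups (points, 8 animals per group, ordered by value; bars, median). EPHA8 in CB lies above all other groups, UNC5C in CC likewise, and EPHA2 in PIT and UNC5D in PA overlap other groups.

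Of the EphB receptors, EPHB6 had the widest range. EPHB6 lacks kinase activity and forms complexes with other Eph receptors. CTX and STR were highest, from 203 to 272 CPM with a median of 235 and from 181 to 259.9 CPM with a median of 221, and they overlapped. CB was lowest in 8 of 8 animals, from 1.08 to 1.85 CPM with a median of 1.39, and PON followed. The difference for CB was log2FC -4.69 ± 0.28 (SE), adjusted p = 1.70e-30, and those for CTX and STR were 3.26 ± 0.13 and 3.15 ± 0.13. In HTHA EPHB6 lay above the mean of the other groups in 8 of 8 animals and was called (1.21 ± 0.16). Without the HTHA library of Rhesus 6 and the AMY library of Rhesus 4 its log2FC was 0.84, below the cut-off of 1.

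EPHB1 and EPHB3, kinases that bind ephrin-B ligands, were both called higher in CB (2.28 ± 0.12 and 1.71 ± 0.10). EPHB1 ran from 39.3 to 61.8 CPM with a median of 54.01 in CB and from 31.5 to 56.2 CPM with a median of 47.2 in STR, which overlapped, and STR was called too (2.05 ± 0.12). EPHB3 was also called higher in THA (1.23 ± 0.10), and both were called lower in CC. EPHB4, the receptor of venous endothelium, was called only in PIT (1.22 ± 0.12). Summed pericyte and fibroblast markers had a median of 419 CPM there beside 93.0 to 361 in the other groups. Summed endothelial markers had a median of 101 CPM in PIT beside 86.2 to 239. The part of either list in the result was not tested. EPHB2, a receptor at excitatory synapses, was called in no group, and its medians ran from 7.85 CPM in OB to 24.4 in HIP.

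The ephrin-A ligands went different ways in the corpus callosum. EFNA1, a ligand of EPHA2 and other EphA receptors, ran from 46.5 to 55.4 CPM with a median of 51.5 in CC and was highest there in 7 of 8 animals, with a single GP value above all CC values, that of Rhesus 2, whose GP library held the most oligodendrocyte markers of GP. EFNA1 was called higher in CC (log2FC 1.87 ± 0.09 (SE), adjusted p = 4.98e-38) and GP (1.23 ± 0.10). EFNA5, known for its gradients in the tectum and thalamus, ran from 0 to 0.611 CPM with a median of 0.259 in CC, where every animal lay below its own mean of the other groups (log2FC -3.83 ± 0.30 (SE), adjusted p = 9.03e-23). EFNA5 was called higher in PIT (1.83 ± 0.14), CTX and HTHA. EFNA3 was called higher in CTX and STR (1.18 ± 0.10 and 1.16 ± 0.10) and lower in CC and, with the largest difference, PIT (-3.50 ± 0.18).

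Of the ephrin-B ligands, EFNB3 was highest in the hippocampus in 8 of 8 animals. HIP ran from 182 to 260.2 CPM with a median of 209, AMY from 131 to 219 CPM with a median of 183 and CB from 4.59 to 7.09 CPM with a median of 5.32. HIP overlapped AMY and lay clear of CB. EFNB3 was called higher in HIP (2.64 ± 0.13), AMY, PA, HTHA and STR, and lower in MO, GP, PON, CC and CB (log2FC -2.96 ± 0.24 (SE), adjusted p = 3.78e-22). EFNB2, the ligand of arterial endothelium, was called higher in OB (1.81 ± 0.14), PA, CTX, STR and AMY, and lower in VTA, PON, PIT, CC and SN (-1.53 ± 0.21). EFNB1 was called higher in OB (1.72 ± 0.08) and PIT (1.25 ± 0.08) and lower in PON (-1.52 ± 0.12). All 3 were thus lower in PON.

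**Figure D3:**
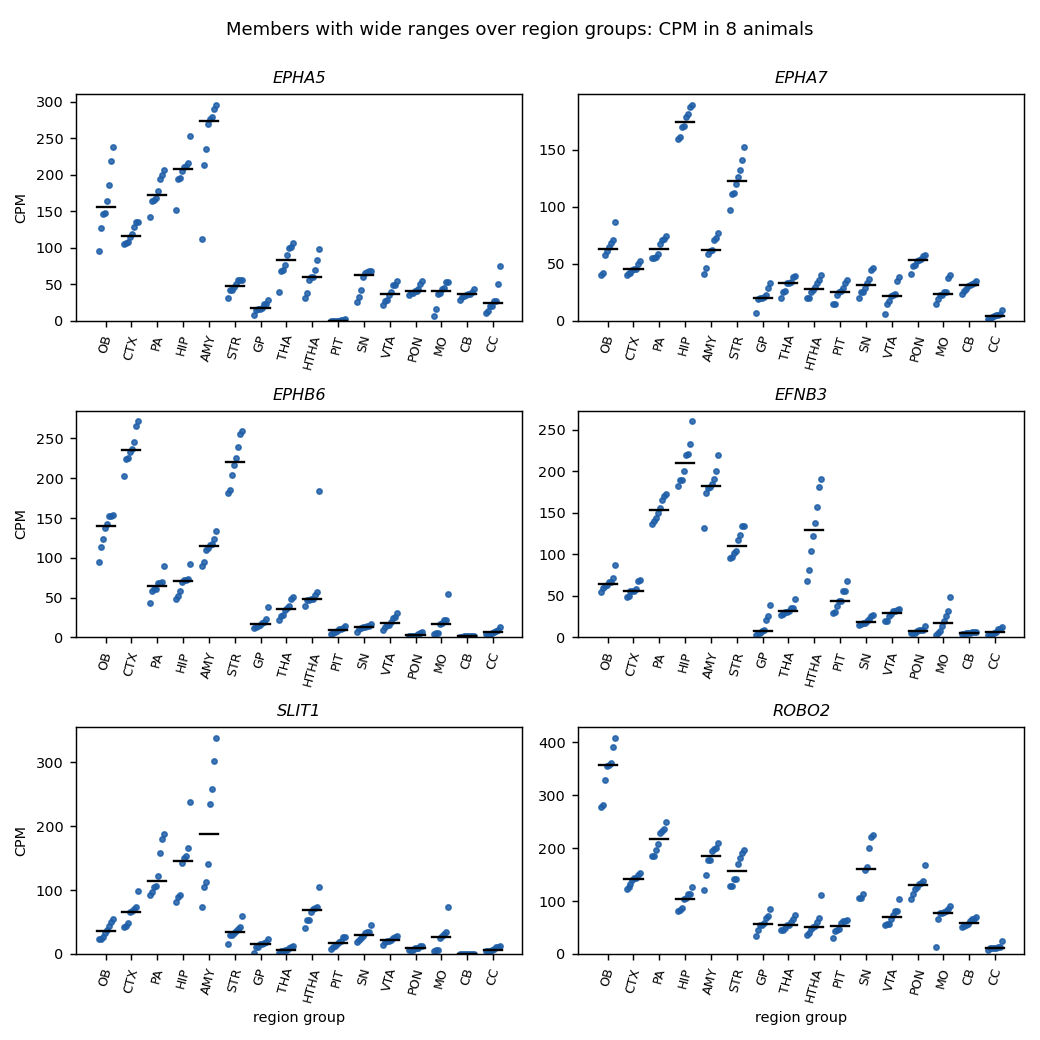
CPM of EPHA5, EPHA7, EPHB6, EFNB3, SLIT1 and ROBO2 in 16 region groups (points, 8 animals per group, ordered by value; bars, median). EPHA5 is lowest in PIT, EPHB6 and SLIT1 in CB, EPHA7 and ROBO2 in CC, and a single HTHA value of EPHB6 lies far above the others.

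The 2 netrins measured had different maps. NTN4, a netrin of basement membranes, ran from 88.1 to 195 CPM with a median of 164 in OB and was highest there in 7 of 8 animals, and ran from 2.41 to 7.75 CPM with a median of 4.102 in CB, lowest in 8 of 8. It was called higher in OB (2.57 ± 0.09), GP and PA and lower in PON and CB (log2FC -3.00 ± 0.16 (SE), adjusted p = 5.12e-35). NTNG2 is anchored to the membrane and binds a partner other than DCC. It was called in 11 groups, higher in HIP (2.98 ± 0.12), PA, PON, AMY and CTX and lower in OB (-2.35 ± 0.22), STR, THA, CB, SN and PIT. HIP ran from 67.6 to 88.7 CPM with a median of 77.5 and was highest in 8 of 8 animals, and OB ran from 1.54 to 3.53 CPM with a median of 2.15.

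Of the 6 netrin receptors, 4 were called higher and 2 lower in the corpus callosum. DCC, the receptor for attraction, ran from 50.3 to 75.4 CPM with a median of 62.98 in CC and from 8.23 to 56.7 CPM with a median of 31.2 in GP, the next group. CC was the highest group in 8 of 8 animals, although the largest GP value exceeded the smallest CC value. The difference was log2FC 2.31 ± 0.17 (SE), adjusted p = 1.54e-24. The call over each other group was lost without Rhesus 4 and in the fit without the animal block.

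UNC5B, a receptor for repulsion that is also found on vessels, ran from 91.97 to 131 CPM with a median of 121 in CC, from 12.5 to 95.96 CPM with a median of 50.8 in GP and from 28.9 to 63.96 CPM with a median of 46.99 in MO. CC was highest in 8 of 8 animals, and the largest GP value exceeded the smallest CC value. The difference was log2FC 2.94 ± 0.13 (SE), adjusted p = 2.19e-40, and MO, GP and VTA were called higher too (1.58 ± 0.16, 1.56 ± 0.16 and 1.36 ± 0.16). PIT held UNC5B from 0.221 to 2.89 CPM with a median of 1.53, the lowest in 8 of 8 animals (log2FC -3.77 ± 0.28 (SE), adjusted p = 1.96e-24). UNC5C, another repulsion receptor, ran from 19.5 to 34.03 CPM with a median of 29.9 in CC, above all values of the other groups, and from 3.21 to 17.01 CPM with a median of 13.2 in CB. Its difference was log2FC 2.21 ± 0.15 (SE), adjusted p = 1.19e-27. NEO1, which binds netrins and RGM proteins, ran from 273 to 351 CPM with a median of 332 in CC and from 134 to 265 CPM with a median of 199.9 in GP, which did not overlap, and was called in CC alone (1.43 ± 0.06).

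The 4 groups with the highest medians of summed oligodendrocyte markers were CC (107695 CPM), GP (60585), VTA (56652) and MO (48731), and these were the 4 groups in which UNC5B was called higher. NEO1 had its 3 highest means in CC, GP and VTA, and so had DCC. UNC5C did not follow this order. After CC its highest means were in CB (12.2 CPM) and THA (11.7 CPM), where the oligodendrocyte medians were 4144 and 16429 CPM. Neuron markers had their lowest group median in CC. The part of either marker list in these results was not tested.

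UNC5A and UNC5D, the remaining members of the family, were called lower in CC (-2.54 ± 0.19 and -1.76 ± 0.36). UNC5D also binds the FLRT proteins. In PA it ran from 9.19 to 49.2 CPM with a median of 26.3, and in CTX from 5.92 to 19.4 CPM with a median of 15.7. PA was highest in 7 of 8 animals and the ranges overlapped, with Rhesus 4 lowest in CTX and Rhesus 8 lowest in PA. The difference was log2FC 2.61 ± 0.21 (SE), adjusted p = 3.91e-21, and CTX and HTHA were called higher as well. The call over each other group was lost when Rhesus 2, 3, 6 or 11 was left out. These are the mid-aged animals, whose PA values lay above those of the young animals, although edgeR did not call that age difference. The call over each other group was also lost with the study's detection rule in place of the filter. The same held without the GP library of Rhesus 2 and the HTHA library of Rhesus 3. UNC5A was called higher in CTX (2.30 ± 0.11), HIP, AMY and PA, and lower in THA, SN, GP and CC.

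Of the 3 Slit ligands, 2 were called lower in the cerebellum. SLIT1, the Slit most restricted to the nervous system, ran from 0.134 to 0.478 CPM with a median of 0.241 in CB, below all values of the other 15 groups. It ran from 73.9 to 338 CPM with a median of 188 in AMY, from 80.7 to 237 CPM with a median of 146 in HIP and from 92.5 to 187 CPM with a median of 114 in PA. These 3 groups overlapped. The difference for CB was log2FC -6.97 ± 0.39 (SE), adjusted p = 2.90e-33, the largest of any member. SLIT1 was read at few counts in CB and did not pass the filter of the fit within the cerebellum. The size of that difference is therefore imprecise. Those for AMY, HIP and PA were 3.20 ± 0.15, 2.72 ± 0.15 and 2.64 ± 0.15. HTHA and CTX were called higher too, and PON, CC and THA lower.

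SLIT2 was also lowest in CB in 8 of 8 animals (-4.17 ± 0.23), ran from 1.08 to 5.36 CPM with a median of 1.95 there, and was called lower in OB and THA. It was called higher in PA (1.94 ± 0.13), CTX, HTHA, HIP and AMY. SLIT3 was not called in CB. It was lower in CC (-3.42 ± 0.22), GP and SN and higher in HIP (1.60 ± 0.13), PA, STR, OB and AMY. All 3 Slits were called higher in PA, HIP and AMY.

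Among the Robo receptors, ROBO2 was the member with the widest range. It ran from 278 to 408 CPM with a median of 356 in OB, above all values of the other groups, and from 6.67 to 23.6 CPM with a median of 12.1 in CC, lowest in 8 of 8 animals. The differences were log2FC 2.06 ± 0.10 (SE), adjusted p = 6.89e-37 for OB and log2FC -3.04 ± 0.17 (SE), adjusted p = 4.69e-33 for CC, and PA and AMY were called higher. ROBO1 was called higher in OB (1.14 ± 0.09) and THA and lower in CB (-1.72 ± 0.12). ROBO3, which acts in commissural neurons during midline crossing, was called in PIT alone (1.42 ± 0.10). ROBO4, the endothelial member, was called only as lower in CB (-1.03 ± 0.12). Over the 51 sub-region means its level had Spearman's rho 0.82 with the summed endothelial markers, a description of points that share animals and libraries.

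Within the cerebral cortex, the question was whether guidance genes differed between gyri. All Slits, Robo receptors and ephrin-B ligands measured were lower in the occipital lobe and higher in the frontal lobe than in the mean of the other lobes. EFNA1 was higher in the occipital (log2FC 0.74) and lower in the frontal lobe (-0.61). It was lower in the temporal lobe by less (-0.26), a call lost under 1 of 4 alternatives. Over the 31 sub-regions 31 of 34 members differed at FDR < 0.05, where 75% of genes tested did, and EPHA2, EPHB4 and UNC5C did not pass. The fitted range over sub-regions exceeded 2-fold for 17 of 34 members and for 27.98% of all genes. SLIT1 had the widest range of 13.8-fold, followed by EPHA6 (6.39), EFNB3 (6.18) and SLIT3 (5.82).

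SLIT1 was highest in the temporal polar gyrus (TPG), from 70.6 to 193 CPM with a median of 143, and lowest in the posterior superior occipital gyrus (pSOG), from 3.53 to 16.3 CPM with a median of 10.1. These sub-regions did not overlap. EPHA6 had the same extremes, from 28.2 to 50.3 CPM with a median of 36.4 in TPG and from 3.31 to 8.32 CPM with a median of 5.94 in pSOG, again with no overlap. EFNB3 was highest in the anterior cingular gyrus (ACG), from 98.4 to 165 CPM with a median of 113, and lowest in the inferior occipital gyrus (IOG), from 17.1 to 26.1 CPM with a median of 18.9. Its sub-regions were also clear of each other. EFNA1 ran opposite, from 11.1 to 21.8 CPM with a median of 14.7 in pSOG and from 3.85 to 6.64 CPM with a median of 5.83 in the anterior superior frontal gyrus, and every animal was higher in pSOG.

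The occipital lobe, set against the mean of the other 4 lobes, had 6 members higher and 14 lower at FDR < 0.05, where 29.9% of genes were higher and 26.4% lower. SLIT1 in the occipital lobe ran from 6.81 to 22.2 CPM with a median of 12.4, and the mean of each animal's other lobes ran from 44.4 to 102 CPM with a median of 69.03. All 8 animals were lower (log2FC -2.31 ± 0.09 (SE), adjusted p = 7.53e-21). EFNB3, the ephrin-B ligand with the largest lobe difference, ran from 17.99 to 26.02 CPM with a median of 19.8 beside from 51.9 to 73.5 CPM with a median of 57.7 in the other lobes, again lower in 8 of 8 (log2FC -1.49 ± 0.05 (SE), adjusted p = 3.49e-22). ROBO1, a receptor of Slits, ran from 15.9 to 24.9 CPM with a median of 18.2 beside from 39.2 to 50.9 CPM with a median of 46.1 (log2FC -1.23 ± 0.05 (SE), adjusted p = 1.27e-21). In neither gene did the occipital values reach those of the other lobes.

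The other occipital differences were smaller than those of SLIT1 and EFNB3, and that of SLIT3 was larger than that of ROBO1. SLIT3, EFNB2, EPHA6 and ROBO3 were lower with log2FC -1.30, -1.12, -1.09 and -0.96, and SLIT2, ROBO2, NTNG2, EPHA10, EFNB1, UNC5A and ROBO4 with -0.72 to -0.22. All 3 Slits and all 4 Robo receptors were thus lower. EFNA1 was higher in 8 of 8 animals (log2FC 0.74 ± 0.05 (SE), adjusted p = 5.53e-15), and ran from 10.4 to 17.4 CPM with a median of 14.7 beside from 6.97 to 9.82 CPM with a median of 8.702. NTN4 was higher by 0.43 and EPHA3, EPHA7, EPHB1 and EPHB2 by 0.13 to 0.31.

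**Figure D4:**
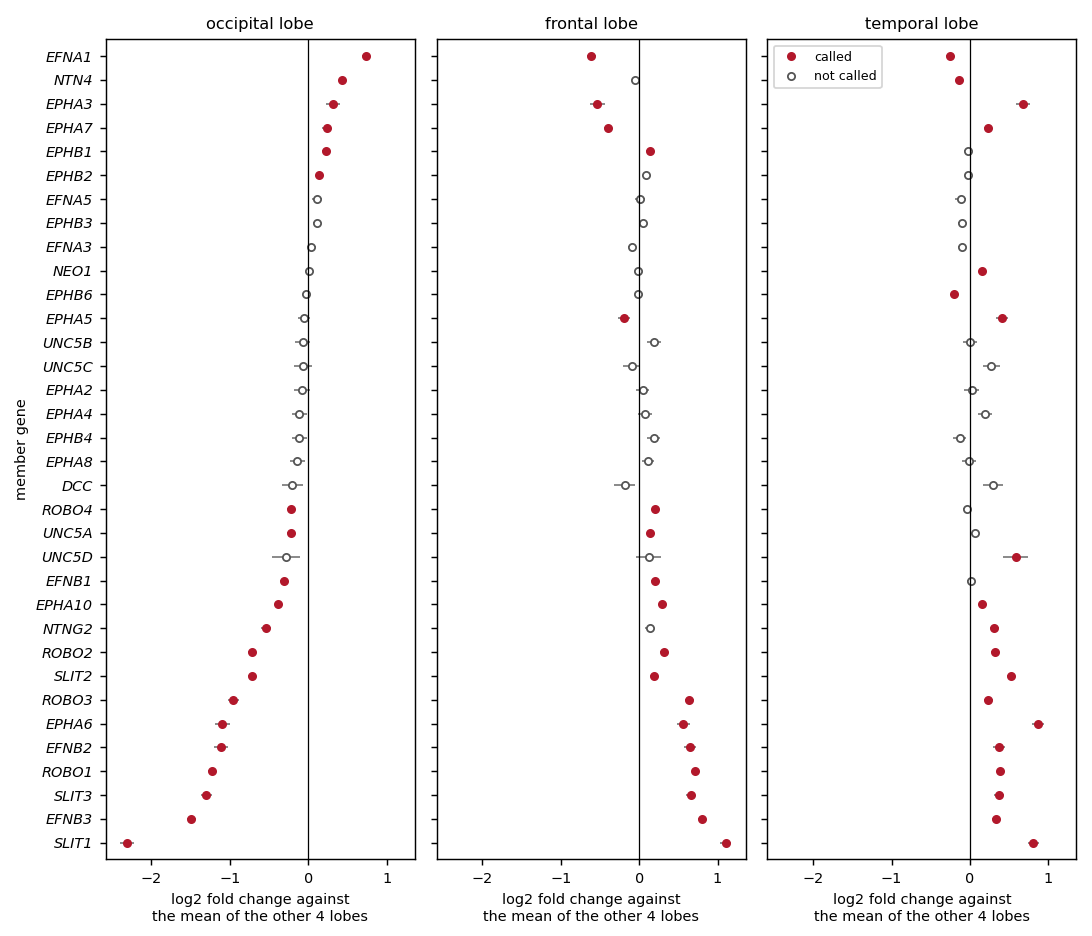
Log2 fold change of 34 members in the occipital, frontal and temporal lobe against the mean of the other 4 lobes (points, estimate; bars, SE, in places smaller than the point; red, FDR < 0.05), ordered by the occipital value. SLIT1 is at -2.31 in the occipital lobe and 1.11 in the frontal lobe, and EFNA1 at 0.74 and -0.61.

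Each lobe enters the mean of the others, so these contrasts are not independent. The frontal lobe had 14 members higher and 4 lower (background 23% and 21%), among them SLIT1 (1.11), EFNB3 (0.80) and ROBO1 (0.72) and, lower, EFNA1 (-0.61). The temporal lobe had 16 higher and 3 lower (13.7% and 12%), with EPHA6 (0.86), SLIT1 (0.81), EPHA3 (0.68) and UNC5D (0.58) the largest. The limbic lobe had 6 higher and 3 lower (8.51% and 7.42%), led by EFNB3 (0.68). The parietal lobe had 1 higher and 7 lower (4.68% and 4.96%), led by EPHA6 (-0.40). No parietal call had an absolute log2FC above 0.5. The 5 lobes had 74 calls in all, and 46 in the fit without the animal block, with no change of direction. The lobe fits had 4 alternatives, and none of them left out an animal. Calls kept under all 4 were 18 of 20 in the occipital, 13 of 18 in the frontal and 12 of 19 in the temporal lobe. The limbic lobe kept 2 of 9 (EFNB3 and SLIT3) and the parietal lobe 1 of 8 (EFNB3).

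Within the striatum, SLIT1 was called for the accumbens nucleus (ACb) against the caudate nucleus (CN) and putamen (PUT), the only call of 34 members, where 3.21% of genes were called for a sub-region. SLIT1 ran from 21.5 to 135 CPM with a median of 67.1 in ACb, from 10.7 to 48.7 CPM with a median of 31.1 in CN and from 2.44 to 10.9 CPM with a median of 7.05 in PUT. ACb was above CN and CN above PUT in 8 of 8 animals, although the ranges of ACb and CN overlapped. The fold of ACb over CN was 1.24 on the log2 scale (adjusted p over the 3 sub-regions = 7.90e-08). In all, 27 members differed over the striatum, where 57% of genes did.

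EFNB3 fell along the same order, from 136 to 180.2 CPM with a median of 154 in ACb, from 94.4 to 139.9 CPM with a median of 121 in CN and from 38.2 to 94.6 CPM with a median of 51.5 in PUT. ACb was highest in 8 of 8 animals and did not overlap PUT. UNC5B and ROBO2 ran the other way. UNC5B was highest in PUT in 8 of 8 animals, from 6.55 to 25.6 CPM with a median of 15.1, against from 2.63 to 8.92 CPM with a median of 4.42 in ACb, with a small overlap. ROBO2 ran from 152 to 253 CPM with a median of 209 in PUT and from 64.3 to 132 CPM with a median of 88.8 in ACb, with no overlap. The caudate nucleus was the highest sub-region for EPHA4, DCC, SLIT2 and EPHA7, among others, in 7 of 8 animals each.

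**Figure D5:**
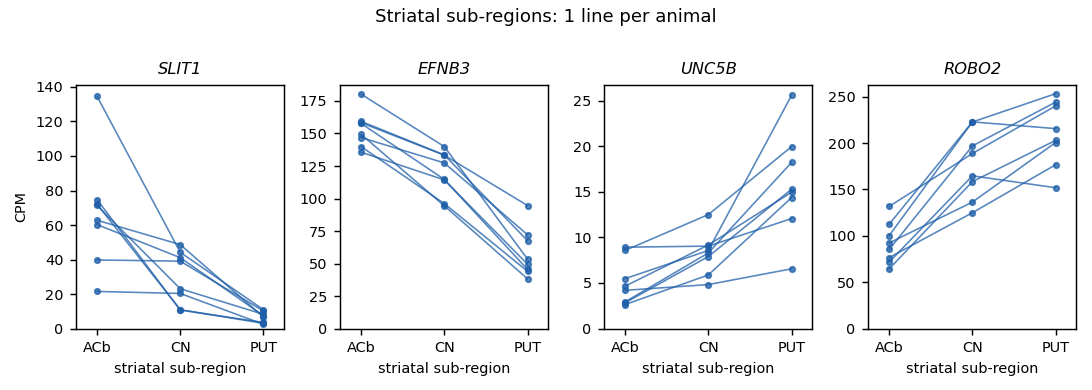
CPM of SLIT1, EFNB3, UNC5B and ROBO2 in the accumbens nucleus (ACb), caudate nucleus (CN) and putamen (PUT), with a line for each of 8 animals. SLIT1 and EFNB3 fall from ACb to PUT in every animal, and UNC5B and ROBO2 are higher in PUT than in ACb in every animal.

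Within the hippocampus, none of 33 members tested was called for a field over 2-fold, where 0.683% of genes were, and 14 differed over dentate gyrus (DG), CA1 and CA3 at FDR < 0.05, where 32.7% of genes did. The dentate gyrus was highest for EPHA7, NEO1, EFNB3, EPHB2 and SLIT3. NEO1 was highest there in 8 of 8 animals, from 151 to 269.96 CPM with a median of 196 beside from 96.8 to 144 CPM with a median of 121 in CA1, and these fields did not overlap. CA1 was highest for EPHB6, UNC5B, EFNA5, SLIT2, EFNB2, EPHA3 and NTN4, and CA3 for EPHA5 and ROBO4. EPHB6 had the widest range (1.24 on the log2 scale), from 59.2 to 118 CPM with a median of 80.99 in CA1 and from 20.6 to 57.04 CPM with a median of 33.8 in DG, where DG lay below CA1 without overlap.

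Within the cerebellum, none of 33 members was called over 2-fold between cerebellar cortex (CBC) and vermis (CBV), where 0.225% of genes were. EPHA8 and NTNG2 differed, where 0.842% of genes did. EPHA8 ran from 22.5 to 48.9 CPM with a median of 33.8 in CBV and from 10.9 to 37.3 CPM with a median of 18.9 in CBC, higher in CBV in 8 of 8 animals (0.70 on the log2 scale, adjusted p = 0.0323 in edgeR). NTNG2 was higher in CBC in 8 of 8 animals, from 3.78 to 11.9 CPM with a median of 6.04 beside from 1.97 to 4.41 CPM with a median of 3.26 (0.98, adjusted p = 0.0333 in edgeR). Both pairs of ranges overlapped.

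Age stage and sex were compared in each region group over 4 against 4 animals, with the other factor as a covariate and calls at FDR < 0.1 and an absolute log2FC above 1. By edgeR, none of the 534 pairs of a member and a group was called for age (background 0.0153%) and none for sex (0.103%). At an unadjusted p under 0.05 there were 54 of these pairs for age (10.1%) and 23 for sex (4.31%). Over all pairs of a gene and a group the shares were 5.73% and 3.56%. DESeq2 called 6 pairs for age and 1 for sex, where it called 0.334% and 0.416% of all pairs of a gene and a group with an adjusted p. The pairs with the smallest p for age were UNC5D and DCC in PA, higher in the mid-aged animals by 1.35 ± 0.27 and 1.36 ± 0.30 (log2FC ± SE, adjusted p = 0.209 and 0.216 by edgeR). UNC5D there was 39.4 ± 8.42 CPM in the mid-aged and 15.2 ± 6.23 in the young animals (SD, n = 4 each), and the stages did not overlap. The smallest p for sex was that of SLIT2 in THA, lower in females (-1.02 ± 0.21, adjusted p = 0.331 by edgeR), at 5.82 ± 1.20 CPM in females and 11.8 ± 1.38 in males, again without overlap. Without Rhesus 7, edgeR called 5 pairs for age, UNC5C, UNC5D and DCC in PA and UNC5C and UNC5D in THA, and 10 for sex, all in PIT. In the same fits it called 0.372% of all pairs of a gene and a group for age (1.94% of genes in PA and 3.17% in THA) and 0.93% for sex (13.7% of genes in PIT). Without Rhesus 11 it called SLIT1 in MO for age (-2.83), where 0.0147% of all pairs of a gene and a group were called over the 16 groups.

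Of 32 other genes of these pathways, such as partners of netrin-G, regulators of signalling below Eph and Robo receptors and proteases of ephrins, 27 were in the table. The counts of called genes were largest in PIT, with 2 higher and 13 lower (background 17.8% and 20.4%), in CB with 6 and 7 (11.5% and 17.5%), and in CC with 4 and 6 (13.6% and 18%). The shares called over all genes were largest in these 3 groups too. NGEF, an exchange factor bound to EphA4, was called higher in STR (4.51 ± 0.13) and CTX (3.74 ± 0.14) and lower in PIT (-5.05 ± 0.33) and CB (-4.06 ± 0.29). CHN1, a Rac regulator below EphA4, was called higher in CTX (2.34 ± 0.11), HIP (2.24 ± 0.11) and AMY (2.05 ± 0.11). NTNG1, the other netrin-G, was higher in THA (4.80 ± 0.11), a group in which NTNG2 was lower (-1.77 ± 0.21). SRGAP2, a GTPase activator that binds Robo receptors, was higher in CB (2.39 ± 0.07), where ROBO1 and ROBO4 were lower. In MO none of the 27 genes was called.

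Members were also compared for likeness of their maps over the 51 sub-region means, which share animals and libraries and are given as a description. The most alike pair was EFNB3 and SLIT1 (Spearman's rho 0.86, Pearson's r 0.85), followed by EPHA10 and EFNB2 (0.84 and 0.68) and UNC5D and SLIT2 (0.84 and 0.52). The most opposite pairs both held EFNA1, with EFNB2 (rho -0.83, r -0.84) and with EPHA6 (-0.81 and -0.82).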

How the data were processed

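The authors removed ribosomal RNA from total RNA, made libraries with a stranded kit, ran FastQC 0.11.4, applied Trim Galore 0.4.4 where quality was poor, used HISAT2 2.0.5 for alignment to the Mmul 8.0.1 genome, and took gene totals from HTSeq 0.6.1 with Ensembl 91 models. The authors deposited these raw counts, unnormalized. How HTSeq treated strand and overlaps is not given in the sources used here, so counts of overlapping genes, antisense genes and near-identical copies are uncertain. All 408 columns were mapped to a sample by name, and no library pair was identical. Depth was 7784678 to 31083490 counts per library, which leaves members with few counts imprecise.

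Member symbols were matched through a table of gene identifiers (34 of 38). Region groups and lobes follow the study's list of sub-regions, in which the cuneus counts as parietal, the insula as frontal, and the fusiform, lingual, parahippocampal and cingular gyri as limbic. Counts were summed within an animal over the sub-regions of a group or lobe. Tests used edgeR 4.0.16 (limma 3.58.1, R 4.3.3) with TMM and filterByExpr. P-values came from its quasi-likelihood F test, adjusted by Benjamini-Hochberg across every gene tested. Genes passing were 16829 over groups, 17478 over lobes and 15981 over cortical sub-regions. Each SE of a log2FC was derived from the F statistic of its contrast. Regional fits had the animal as a block, because the labels show that samples with the same number came from the same animal. Age and sex fits had the other factor as a covariate, with thresholds as given in the report, which follow the study's methods.

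The text gives full values for members called for a region group or sub-region or with the largest absolute log2FC of their class in a contrast, and accounts for all members. Of the pathway list it names at most 2 called genes per contrast. The members, the pathway and marker lists and the tests were chosen with earlier results of these data known. Scripts used Python 3.11.15, numpy 2.4.6, pandas 2.3.3, scipy 1.17.1 and matplotlib 3.10.9, and the tests were checked on simulated data. Alternatives were DESeq2 1.42.0, its size factors in edgeR, the study's detection rule (count > 1 in at least 3 samples), no block or covariate, each animal left out, and fits without the HTHA library of Rhesus 6 and the AMY library of Rhesus 4, without the MO library of Rhesus 6, and without the GP library of Rhesus 2 and the HTHA library of Rhesus 3. Animals were left out only in the fits of region groups and of age and sex, and single libraries only in the fits of region groups. Neither was done for lobes, cortical sub-regions or the sub-regions of a structure. Of the marker lists, 2 oligodendrocyte precursor, 3 microglia, 1 endothelial and 1 choroid plexus gene were not matched. The 8 midbrain and 33 ATAC-seq libraries, the assembled transcripts and gene sequences were not used here.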

Additional observations from a re-analysis of the deposited data

Results flagged for a closer look

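In 9 of the 77 sets of 8 animals behind the values given above, a single animal lay far from the others, which is 11.7% of the sets. The rule flags about 1 in 20 sets of independent normal values. CPM need not be normal and the sets share animals, so that rate is no measure of an excess here. The share over all genes was not computed. Over all 544 pairs of a member and a region group there were 53 such sets (9.74%). EPHA2 in the pituitary reached 16.8 CPM in Rhesus 8 beside 3.65 to 8.33 in the other 7 animals, and its call for that group was lost without this animal. EPHA5 in the amygdala was 111.9 CPM in Rhesus 8 beside 214 to 295. In the cerebellum, UNC5C was 3.21 CPM in Rhesus 4 beside 10.7 to 17.01, and EPHB6 was 1.85 CPM in Rhesus 3 beside 1.08 to 1.43. ROBO2 in the corpus callosum was 23.6 CPM in Rhesus 4 beside 6.67 to 13.8. In the cortex, ROBO1 in the occipital lobe was 24.9 CPM in Rhesus 3 beside 15.9 to 20.0, and EFNB3 in the inferior occipital gyrus was 26.1 CPM in Rhesus 11 beside 17.1 to 21.1. NTNG2 in the cerebellar cortex was 11.9 CPM in Rhesus 4 beside 3.78 to 7.16. SLIT1 in the accumbens nucleus was 134.6 CPM in Rhesus 6 beside 21.5 to 74.7, and the striatal fit was not run without this animal.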

How the results depend on the processing

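No called difference of a member in a region group or lobe changed direction under the alternatives run for that comparison, and directions of the other differences were not compared across settings. Of the 190 calls of a region group against the mean of the others 171 were kept under every setting, and the count ran from 184 to 191 over fits that left out 1 animal each and from 187 to 192 over the others. The 6 members called for a single group were 5 to 6 without each animal in turn, 6 with DESeq2, 5 with the study's detection rule and 1 with a fold above 4. Without Rhesus 11, NTN4 was called for OB and UNC5D was not called. Without the animal block, that is without the pairing, 5 of these 6 members, 191 group calls, 23 of 31 members that differed over the cortex and 46 of 74 lobe calls remained in number, and SLIT1 was still called for ACb. With an absolute log2FC above 0.5 added, 26 lobe calls were left. With DESeq2 there were 78 lobe calls, and with the study's detection rule 66. DESeq2 called 6 pairs for age where edgeR called 0, namely SLIT1, EPHB6 and EFNB3 in MO, lower in the mid-aged animals, EPHA4 in PIT, lower as well, and UNC5D and DCC in PA, higher. It called 1 pair for sex where edgeR called 0, SLIT2 in THA. The mid-aged animals include Rhesus 6, whose MO library stood apart. Without each animal in turn, edgeR called 0 to 5 pairs for age and 0 to 10 for sex, all but 1 of them without Rhesus 7. The cause of these shifts was not tested. The fits without the MO library of Rhesus 6, and without the GP library of Rhesus 2 and the HTHA library of Rhesus 3, were added after seeing the data. They gave 190 and 191 group calls, and 6 and 5 members called for a single group, UNC5D being lost in the latter. Depth limits members with few counts, such as EPHA8 and EFNA5 in CC, where values of 0 occurred. SLIT1 in CB and EPHA5 in PIT were also read at few counts, so the size of their differences is imprecise.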

Other observations

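Some netrin receptors moved together between animals of the same region group. Over the sums of 16 groups and 8 animals, the median of each group was taken off the log2(CPM + 1) level. UNC5C and UNC5D then had Spearman's rho 0.78, DCC and UNC5C 0.78, and DCC and UNC5D 0.73. The median over the 561 pairs of members was 0.085. These pairs were picked as high ones from all pairs of members, and pairs of other genes were not compared. The sums share 8 animals, so these values are a description. DCC, UNC5D and UNC5C lay below the group median in Rhesus 4 (medians over 16 groups of -1.06, -0.91 and -0.65 on the log2 scale) and above it in Rhesus 7 (0.31, 0.43 and 0.40). DCC was the lowest in Rhesus 4 in 10 of 16 groups. Low medians in Rhesus 4 and high ones in Rhesus 7 were not particular to these genes. They were -0.64 and 0.22 for UNC5B, and -0.34 and 0.40 for EPHA4, which is no netrin receptor. The netrin receptors UNC5A (0.07 and 0.04) and NEO1 (-0.07 and 0.11) lay nearer the group median in Rhesus 4.

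Other members also stood at the end of the range in a given animal. EPHB3, an ephrin-B receptor, was highest in Rhesus 4 in 10 of 16 groups, and UNC5B was lowest there in 9. NTN4 was highest in Rhesus 3 in 9 groups. EPHA10 was lowest in Rhesus 3 in 9 groups and highest in Rhesus 8 in 8. These counts were picked as large ones from all members and animals, and the 16 groups come from the same animals. How often other genes reach such counts was not computed. EPHB4 had Spearman's rho 0.81 with the summed pericyte and fibroblast markers and 0.75 with the summed endothelial markers over the 51 sub-region means.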
